A study of Mus musculus with 22 samples.

Results

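The RNA-seq of E14.5 liver compared 3 homozygous Rlf mutant livers (Rlf MommeD28/MommeD28) with 3 wild-type livers (Rlf +/+), which are 6 of the 22 samples of the series. These samples were chosen by tissue, stage and assay, and every gene with enough reads was tested, which were 14183 of the 37991 Ensembl genes in the count files. MommeD28 is an ENU-induced allele of Rlf, described in the labels as null when homozygous. The mice were FVB/NJ (FVB in the labels), of the line named Line3. Wild types as well as mutants were homozygous in it for an array of many GFP reporter copies, whose expression is driven by regulatory elements of human alpha-globin, HS-40 among them. In each genotype replicates 1 and 2 were male and replicate 3 was female, and the labels do not say which embryos shared a litter. The p-values therefore measure the spread between these livers. PolyA-selected RNA was sequenced as 50 bp single-end reads, and the deposited totals ran from 12928313 to 14621004 counts per liver. Because no liver was divided into cell types, fewer cells of a type and less RNA per cell cannot be told apart in any value below.

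Rlf encodes a large zinc finger protein that has been linked to the control of DNA methylation. The liver at this stage is the main site of blood formation. It holds many erythroblasts beside hepatoblasts, the fetal cells that give rise to hepatocytes and bile duct cells, with smaller numbers of megakaryocytes, macrophages, granulocyte precursors, endothelial and stellate cells. Hepatoblasts already secrete albumin and lipoproteins at this stage, while many enzymes of adult liver metabolism are still at low levels and rise towards birth.

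Levels are given as CPM, the counts of a gene per 1000000 counts of its library, scaled between libraries by trimmed mean of M values, and differences as log2 fold changes of mutant over wild type with their standard error (SE). A gene was called at a Benjamini-Hochberg adjusted p under 0.05 in edgeR's quasi-likelihood test. By this rule 197 of 14183 genes differed between genotypes, which is 1.39% of genes tested. Of these, 99 were higher in mutants (0.698%) and 98 were lower (0.691%). With replicate number as a block the count rose to 460 genes (3.24%), of which 263 were higher (1.85%) and 197 lower (1.39%), and all 197 genes called without the block were among them. These shares are the background of every list count below, and nothing is read about a list from a single called member. The lists were chosen with earlier results of these data known, so a list share above the background is a description and not a test. Of the 197 genes 193 are protein coding, and 37 have exons that overlap another annotated gene, so that reads counted without strand cannot be told apart there. Adh1, Egr1, Cxcl10, C1s and Pcolce are among them. The groups did not overlap in any of the 197 genes, whereas 2885 of all tested genes (20.3%) had groups that did not overlap.

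Genes that fell did so by more than genes that rose. The median fall was 1.84-fold and the median rise 1.44-fold. A change above 2-fold was found for 41 of the 98 lower genes and for 12 of the 99 higher genes. Among the lower genes 39 had a mean under 10 CPM, against 20 of the higher genes and 4455 of all tested genes (31.4%). Rlf itself did not differ. Its transcript was at 70.0, 72.3 and 68.9 CPM in wild-type livers and at 76.3, 79.8 and 67.6 CPM in mutants (log2 fold change 0.08, adjusted p = 0.646). A point allele need not change the level of a transcript, so this value does not check the genotype labels.

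**Figure D1:**
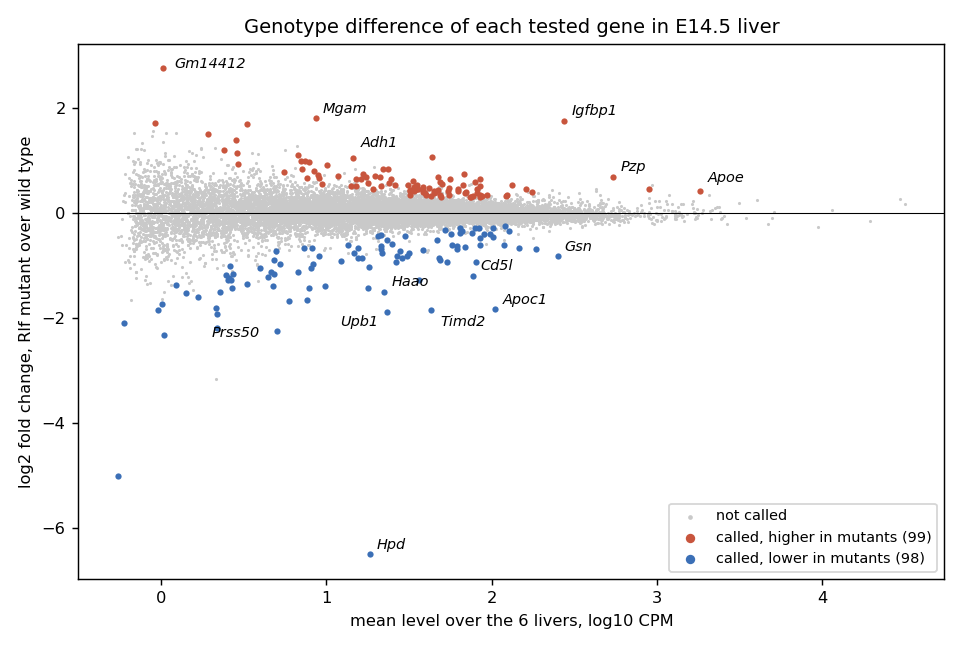
Each point is 1 of 14183 tested genes, with its mean level over the 6 livers (log10 CPM) on the horizontal axis and its log2 fold change of mutant over wild type on the vertical axis. The 98 genes called lower (blue) reached further from 0 than the 99 called higher (red), with Hpd at -6.50 and Cyp2d37-ps at -5.0 the lowest, clear of the next gene at -2.32.

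The rule for naming genes took 80 called genes. Each of these kept its direction under every alternative processing, which their non-overlapping groups all but fixed in advance. When any single library was left out, and under every other setting, 29 stayed called. These were Hpd, Upb1, Haao, Apoc1, Timd2, Prss50, Psma8, Dnajb3, Zfp783, 1700006J14Rik, Atp2b2, Masp2, Slc27a5, Prg2, Cd5l, Cyp4a12a, Tcf7l2, Aqp9, Gsn, Camp and Trfr2 among the lower genes, and Mgam, Gm14412, Gm20541, Adh1, Aldh1a7, Igsf11, Dak and Clu among the higher genes. The other 51 lost their call when at least 1 library was left out, and the number of leave-one-out fits that called a gene, or the libraries whose removal ended its call, are given where it is described. With 1 library left out the share of all tested genes called lower ran from 0.271% to 0.883% and the share called higher from 0.188% to 0.675%, and both were lowest without mutant replicate 1.

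The largest change was the loss of Hpd, which encodes 4-hydroxyphenylpyruvate dioxygenase, an early enzyme of tyrosine breakdown in hepatocytes. Wild-type livers had 47.9, 26.1 and 34.7 CPM of Hpd and mutant livers 0.388, 0.289 and 0.491 CPM. The highest mutant was far under the lowest wild type, at a log2 fold change of -6.50 (SE 0.32, edgeR adjusted p = 7.54e-07). The rest of the pathway was little changed. Of 7 tested genes of tyrosine and phenylalanine breakdown, Hpd and Hgd were called lower, beside 0.691% of all tested genes, and none higher. Hgd, which encodes the enzyme acting after Hpd, had a log2 fold change of -0.33 (adjusted p = 0.0309) and was called in 1 of 6 leave-one-out fits, with a highest adjusted p of 0.13. Fah, the last enzyme of the pathway, was at -0.15 (adjusted p = 0.348). With the replicate block Gstz1 was also called lower, which made 3 lower genes. Tat was below the count filter.

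Upb1 and Haao were each a single lower enzyme in a pathway whose other tested members were not called. Upb1 encodes beta-ureidopropionase, the last enzyme of pyrimidine breakdown, and was at 35.9, 33 and 40.3 CPM in wild-type livers and 10.6, 10.1 and 8.99 CPM in mutants. Its log2 fold change was -1.88 (SE 0.11, edgeR adjusted p = 2.71e-06), and it was the 1 called gene among 7 tested in its list. Dpyd and Dpys, which act before it, were at 0.29 and -0.20 (adjusted p = 0.292 and 0.639). Haao encodes 3-hydroxyanthranilate dioxygenase of the kynurenine route from tryptophan towards NAD. It was at 38.7, 29.3 and 31.4 CPM in wild-type livers and 14.7, 11.3 and 9.41 CPM in mutants, a log2 fold change of -1.49 (adjusted p = 0.000541). None of the other 6 tested members of that list was called. Hal, which encodes histidine ammonia-lyase, was lower at -0.90 (adjusted p = 0.0373), the 1 called gene of 24 tested in the list of other amino acid breakdown, but none of 6 leave-one-out fits called it (highest adjusted p 0.131), and with the block Bhmt was lower as well. No urea cycle gene of 8 was called by edgeR or DESeq2, 2 had an unadjusted p under 0.05, and with the block 1 was lower.

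Several enzymes that handle steroids, bile acids and drugs were lower. In the cytochrome P450 list, 5 of 18 tested genes were called lower, beside 0.691% of all tested genes, and none higher, while the list's median log2 fold change was 0.04, beside -0.0017 over all tested genes. The 5 were Cyp2d9 (-1.73), Cyp2d26 (-1.40), Cyp4a12a (-1.11), Cyp3a11 (-0.82) and Cyp2c44 (-0.58). Cyp2d26 was at 19.07, 9.052 and 14.8 CPM in wild-type livers and 6.6, 4.11 and 5.55 CPM in mutants, so the groups were separate but the wild types spread widely. Leave-one-out fits called Cyp2d26 in 1 of 6, Cyp2d9 in 2 of 6, and Cyp3a11 and Cyp2c44 in 3 of 6, with highest adjusted p of 0.0703, 0.145, 0.0844 and 0.0661. Without mutant replicate 1 or without wild-type replicate 1, Cyp4a12a was the 1 member still called lower, and without mutant replicate 3 there were 2 lower and 1 higher. With the replicate block the same 5 were lower and Cyp3a16, at 0.40 without the block (adjusted p = 0.0606), was higher. Outside the list, and picked out after its values were seen, Cyp2d37-ps was lower at 1.22, 0.925 and 1.05 CPM in wild-type livers against 0.0776, 0 and 0 CPM in mutants (log2 fold change -5.0, adjusted p = 0.00401). This rests on 45 reads in wild types and 1 in mutants, a ratio of 43.7 with an exact 95% interval of 7.45 to 1760 for counting error only, and it was called in 6 of 6 leave-one-out fits. Cyp2d genes are close copies of each other, so reads could be divided among them. In the list of conjugating enzymes 3 of 31 tested genes were lower, beside 0.691% of all tested genes, and none higher: Ugt1a9 (-1.18), Gstm3 (-0.97) and Gstm5 (-0.34). All 3 belong to families of near-identical or exon-sharing genes. Ugt1a9 was called in 2, Gstm5 in 1 and Gstm3 in none of 6 leave-one-out fits (highest adjusted p 0.0995, 0.165 and 0.116), and no member of the list was called without wild-type replicate 1 or 3 or without mutant replicate 1 or 3.

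In bile acid synthesis and transport 2 of 17 tested genes were lower and 1 was higher, beside 0.691% and 0.698% of all tested genes, and with the replicate block 4 were lower, beside 1.39%. Akr1d1 encodes the steroid 5-beta-reductase of bile acid synthesis. It was at 16.4, 7.73 and 10.1 CPM in wild-type livers and 3.80, 4.83 and 4.0 CPM in mutants, a log2 fold change of -1.42 (SE 0.25, edgeR adjusted p = 0.0176). It lost its call without mutant replicate 1 or mutant replicate 3 (highest adjusted p 0.1). Slc27a5, which activates bile acids with coenzyme A, was at 28.4, 22.3 and 22.7 CPM against 12.7, 12.2 and 11.2 CPM (log2 fold change -1.02, adjusted p = 0.00147). Abcc2, an exporter of conjugated bilirubin and other anions, was higher at 0.40 (adjusted p = 0.04) and was called in 2 of 6 leave-one-out fits (highest adjusted p 0.153). Cyp7a1, the rate-limiting enzyme of the pathway, was at 0.19 (adjusted p = 0.791).

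Among lipoprotein genes 2 of 19 tested were lower and 2 higher, beside 0.691% and 0.698% of all tested genes, and 3 were lower with the block, beside 1.39%. Without mutant replicate 1 only Apoc1 of the list was called. Apoc1, a small apolipoprotein of lipid-carrying particles, was at 192, 145 and 155 CPM in wild-type livers and 44.2, 52.7 and 41.5 CPM in mutants (log2 fold change -1.83, SE 0.11, edgeR adjusted p = 3.75e-06). Apoe, whose gene lies 3.45 kb from Apoc1 and whose product is the ligand by which remnant particles are taken up, moved the other way. It was at 1684, 1537 and 1488 CPM in wild-type livers and 2040, 2348 and 1898 CPM in mutants, a log2 fold change of 0.42 (adjusted p = 0.0334). Leaving out wild-type replicate 2 or 3 or mutant replicate 1 or 2 ended the call of Apoe (highest adjusted p 0.134). Of 10 tested genes within 100 kb of Apoc1, Apoe was the 1 called gene, and Apoc2 and Apoc4, in the same cluster, were at -0.18 and 0.09 (adjusted p = 0.292 and 0.751). Vldlr, a lipoprotein receptor that also binds reelin, was higher at 12.7, 19 and 15.4 CPM against 30.9, 30.4 and 22.9 CPM (log2 fold change 0.83, adjusted p = 0.0182), and Dab1, the adaptor that acts under that receptor, was higher at 0.94 (adjusted p = 0.0424). Vldlr was called in 2 and Dab1 in 1 of 6 leave-one-out fits, with highest adjusted p of 0.0998 and 0.145. Lcat, which esterifies cholesterol on lipoproteins, was lower at -0.38 (adjusted p = 0.0449) and was called in 1 of 6 such fits (highest adjusted p 0.169). In cholesterol synthesis and uptake none of 23 tested genes was called by edgeR, in fatty acid synthesis none of 18 and in fatty acid oxidation and ketogenesis none of 22, with 4, 6 and 1 at an unadjusted p under 0.05. DESeq2 called 0, 1 and 0 of them, and with the block 2 fatty acid synthesis genes were higher.

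Iron handling genes were called in both directions, 2 lower and 2 higher of 22 tested, beside 0.691% and 0.698% of all tested genes, and 3 lower with the block, beside 1.39%. The lower genes stayed called with any library left out, but neither higher gene was called without wild-type replicate 1 or 3 or mutant replicate 1 or 2. Timd2, a receptor for H-ferritin, was at 71.8, 59.9 and 71.0 CPM in wild-type livers and 19.87, 18.18 and 18.46 CPM in mutants, which shared the lowest adjusted p of all genes with Hpd (log2 fold change -1.84, SE 0.09, edgeR adjusted p = 7.54e-07). Transferrin receptor 2, listed as Trfr2, senses iron-loaded transferrin and was at 100, 108 and 100 CPM against 75.8, 63.2 and 62.9 CPM (log2 fold change -0.61, adjusted p = 0.00266). Transferrin itself, Trf, was higher at 769, 701 and 805 CPM against 1031, 1171 and 925 CPM (log2 fold change 0.46, adjusted p = 0.0289), as was Fam132b, which encodes the erythroid hormone erythroferrone (0.65, adjusted p = 0.0421). Trf was called in 2 and Fam132b in 1 of 6 leave-one-out fits, with highest adjusted p of 0.121 and 0.139. The ferritin genes Fth1 and Ftl1 were at -0.11 and -0.04 (adjusted p = 0.523 and 0.832), the transferrin receptor Tfrc was at 0.03 (adjusted p = 0.945), and Hamp, which encodes hepcidin, was below the filter.

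Complement and clotting factors made by hepatocytes were mostly not called. Masp2, the serine protease of the lectin pathway of complement, was lower at 29.7, 23.7 and 24.9 CPM against 9.86, 11.4 and 7.72 CPM (log2 fold change -1.43, edgeR adjusted p = 0.000525). Its annotated exons overlap those of Tardbp, and reads were counted without strand. C1s, of the classical pathway, was higher at 0.33 (adjusted p = 0.04) but was called in 1 of 6 leave-one-out fits (highest adjusted p 0.146), and 21 other tested complement genes were not called. These 2 calls stand beside 0.691% of all tested genes lower and 0.698% higher. With the block 2 complement genes were higher and 3 lower, beside 1.85% and 1.39%. The coagulation factor F7 was lower at -0.60 (adjusted p = 0.0319), the 1 called gene of 24 tested for coagulation and fibrinolysis, and was called in 2 of 6 leave-one-out fits (highest adjusted p 0.113). With the block F7 and Proc were lower and F5 was higher in that list. Of 13 tested acute phase genes 2 were lower, beside 0.691% of all tested genes. These were Lcn2, which is counted again with the neutrophil genes below, and Saa4, a serum amyloid (-0.44, adjusted p = 0.0319). Saa4 was called in 1 of 6 leave-one-out fits (highest adjusted p 0.123). No acute phase gene was called without mutant replicate 1 or 3. Gsn, which encodes the actin-severing protein gelsolin, fell from 372, 281 and 307 CPM to 176, 186 and 181 CPM (log2 fold change -0.82, adjusted p = 0.00144). Tcf7l2, a transcription factor of the Wnt pathway, was at 37.5, 31.6 and 35.4 CPM against 18.4, 16.7 and 19.6 CPM (log2 fold change -0.93, adjusted p = 0.000541), while the other 24 tested Wnt pathway genes were not called. Aqp9, the glycerol channel of hepatocytes, was lower at -0.86 (adjusted p = 0.00547).

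Other genes known from hepatocytes were among the higher genes. Pzp, a plasma protease inhibitor, was at 446, 344 and 460 CPM in wild-type livers and 752, 684 and 586 CPM in mutants (log2 fold change 0.69, edgeR adjusted p = 0.0129). Zbtb20, a repressor of alpha-fetoprotein in liver, was at 6.33, 6.21 and 5.96 CPM against 12.7, 9.88 and 9.69 CPM (0.80, adjusted p = 0.0176). Pzp lost its call without mutant replicate 1 (adjusted p = 0.0844), and Zbtb20 lost it in 3 of 6 leave-one-out fits (highest adjusted p 0.0851). Dak, a kinase of fructose breakdown, was higher at 0.75 (adjusted p = 0.00147). Its annotated exons overlap those of Cybasc3. Adh1 and Aldh1a7 encode dehydrogenases that act in turn on alcohols and aldehydes. Adh1 was at 9.08, 9.51 and 9.82 CPM in wild-type livers and 19.8, 24.1 and 15 CPM in mutants (1.05, adjusted p = 0.00682), and Aldh1a7 at 5.04, 5.09 and 4.84 CPM against 9.55, 9.02 and 11.3 CPM (1.0, adjusted p = 0.00497). Adh7, 27.6 kb from Adh1, was called in the other direction at -2.09 (adjusted p = 0.04), from 1.14, 0.859 and 0.912 CPM to 0.155, 0.144 and 0.351 CPM, and was picked out after its values were seen. None of 6 leave-one-out fits called Adh7 (highest adjusted p 0.163).

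Mgam, the maltase-glucoamylase of starch digestion in the gut, had the lowest adjusted p among the higher genes. It was at 3.74, 3.90 and 3.86 CPM in wild-type livers and 14.51, 13.06 and 12.64 CPM in mutants, a log2 fold change of 1.80 (SE 0.13, edgeR adjusted p = 2.35e-05). Gm14412, a predicted gene, rose from 0.153, 0.198 and 0.421 CPM to 1.47, 1.80 and 2.11 CPM (2.76, adjusted p = 0.00516). Myo5c, a myosin of epithelial cells, rose from 1.83, 0.727 and 2.10 CPM to 4.81, 4.62 and 5.62 CPM (1.70, adjusted p = 0.0132) and lost its call without mutant replicate 1 (adjusted p = 0.0558). Further rises were in Nefh (1.2), a neurofilament, Clic6 (1.14), Gm20541 (1.11), Igsf11 (0.99) and Cxcl10 (0.97), a chemokine induced by interferon, with edgeR adjusted p of 0.0156, 0.0182, 0.00369, 0.00682 and 0.0424. Cxcl10 was called in 2, Clic6 in 2 and Nefh in 3 of 6 leave-one-out fits (highest adjusted p 0.139, 0.0736 and 0.0843). Sox9, a transcription factor that marks bile duct cells, was at 2.06, 1.26 and 1.40 CPM in wild-type livers and 3.96, 3.54 and 4.77 CPM in mutants (1.39, adjusted p = 0.0143). It was the 1 called gene of 7 tested bile duct markers, whose summed level ran from 30.3 to 36.3 CPM in wild types and from 41.2 to 51.7 CPM in mutants. Epcam and Spp1 of the same list were at 1.22 and 0.87 (adjusted p = 0.0978 and 0.195), Krt7 and Krt19 at -0.38 and -0.22 (adjusted p = 0.399 and 0.649), and Epcam was also called with the block. Sox9 was called in 3 of 6 leave-one-out fits (highest adjusted p 0.0614). The part of bile duct cell number in the rise of Sox9 was not tested.

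**Figure D2:**
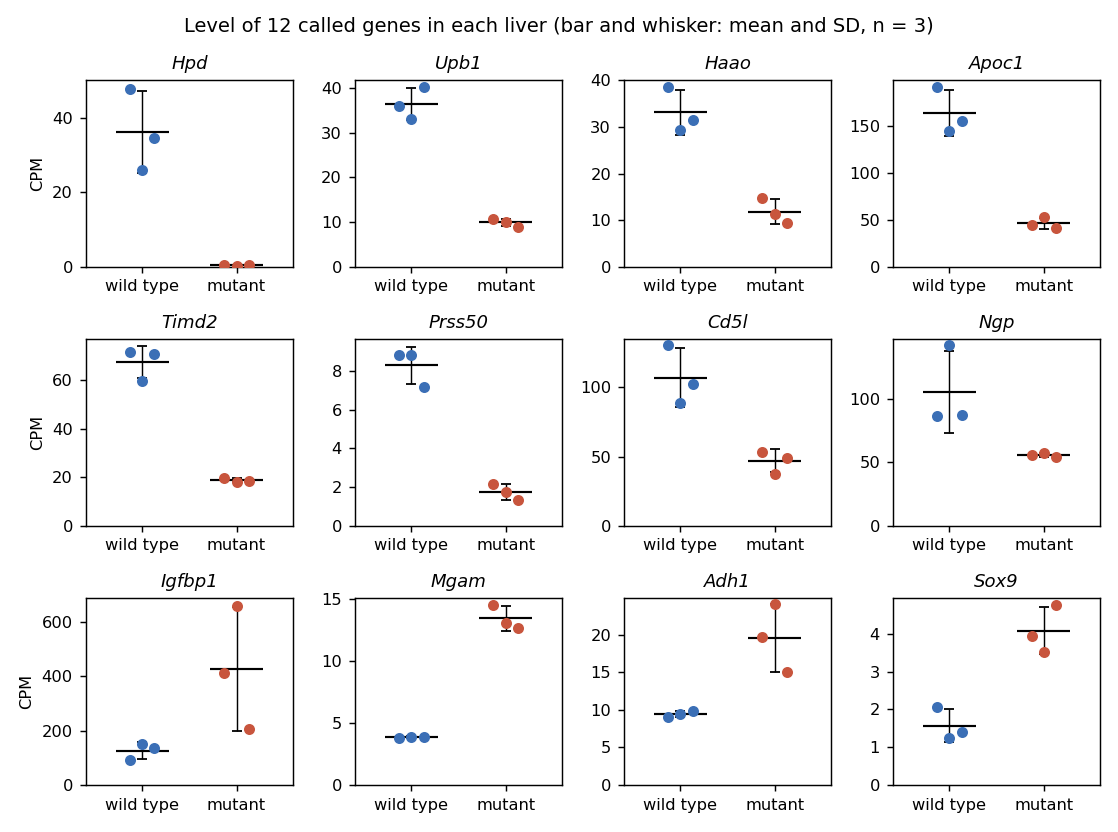
Level of 12 called genes in each liver, in CPM on axes that start at 0, with 3 wild-type livers in blue and 3 mutant livers in red and the mean and SD in black. In each panel all mutant livers lie on 1 side of all wild-type livers, with Hpd close to 0 in the mutants and Igfbp1 widely spread among them (205 to 659 CPM).

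Some transcripts that respond to low oxygen were higher. Of 20 tested genes of the hypoxia list 4 were called higher, beside 0.698% of all tested genes, and none lower, all 20 had a positive log2 fold change, and their median was 0.32 beside -0.0017 over all tested genes. With the replicate block 8 of the 20 were higher, beside 1.85%. These calls depended on the libraries used. Without mutant replicate 1 none of the 20 was called, without wild-type replicate 1 or 3 only Kdm3a was, and without wild-type replicate 2 there were 6. Igfbp1, a secreted binding protein for insulin-like growth factors, was at 91.0, 151 and 135 CPM in wild-type livers and 413, 659 and 205 CPM in mutants (log2 fold change 1.76, SE 0.32, edgeR adjusted p = 0.0185). Every mutant liver was above every wild-type liver, but mutant replicate 3 was much nearer to the wild types. Igfbp1 lost its call without wild-type replicate 1 or 3 or mutant replicate 1 (highest adjusted p 0.0846). It was also counted in the lists of glucocorticoid targets and of insulin-like growth factors. Igfbp1 was the 1 higher gene of 15 tested in the former and of 17 in the latter, beside 0.698% of all tested genes. Lcn2 was the 1 lower glucocorticoid target, beside 0.691%. With the block 2 genes were higher in each list, beside 1.85%.

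The other 3 called hypoxia genes were an oxygen sensor, a histone demethylase and a collagen-modifying enzyme. Egln3, a prolyl hydroxylase that senses oxygen, was at 5.80, 8.39 and 6.59 CPM in wild-type livers and 10.6, 11.6 and 11.1 CPM in mutants (0.68, edgeR adjusted p = 0.0434). Kdm3a, a demethylase of histone H3, was at 53.4, 56.8 and 53.7 CPM against 81.8, 87.3 and 69.2 CPM (0.54, adjusted p = 0.00864). P4ha1, which hydroxylates collagen, was at 0.42 (adjusted p = 0.0354). Kdm3a lost its call without mutant replicate 1 (adjusted p = 0.0558), Egln3 was called in 1 and P4ha1 in 2 of 6 leave-one-out fits (highest adjusted p 0.139 and 0.145). Hk2 and Vegfa were at 0.56 and 0.48 (adjusted p = 0.0693 and 0.0557) and were called with the block, while Slc2a1 and Egln1 were at 0.03 and 0.07 (adjusted p = 0.893 and 0.776). The summed level of the list was 2118 to 2225 CPM in wild-type livers and 2429 to 3263 CPM in mutants, with mutant replicate 3 the lowest mutant. Epo, the hypoxia-induced hormone of red cell formation, was at 0.33 (adjusted p = 0.679).

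Bhlhe40, a transcription factor of the circadian clock list that is also induced by low oxygen, was at 24.0, 26.5 and 25.3 CPM against 37.4, 40.4 and 32.9 CPM (log2 fold change 0.54, edgeR adjusted p = 0.0126), losing its call without mutant replicate 1 (adjusted p = 0.0661). The exons of Bhlhe40 overlap those of 0610040F04Rik. With the block Npas2 of the clock list was higher too. In the list of the integrated stress response 1 of 27 tested genes was higher, beside 0.698% of all tested genes, with 3 under the block, beside 1.85%. This was Nupr1, a stress-induced transcription cofactor, at 1.37, 0.859 and 0.772 CPM in wild-type livers and 1.94, 3.75 and 2.81 CPM in mutants (1.51, adjusted p = 0.04), which was called in 1 of 6 leave-one-out fits (highest adjusted p 0.13). None of 18 tested p53 targets, 15 NRF2 targets, 16 interferon response genes or 34 cell cycle genes was called by edgeR, with 3, 4, 2 and 7 at an unadjusted p under 0.05 and 0, 1, 0 and 0 called by DESeq2, and with the block 1 NRF2 target was higher and 1 interferon response gene and 1 cell cycle gene were lower. Egr1, an immediate early transcription factor, was higher at 22.2, 31.0 and 30.6 CPM against 68.6, 72.6 and 35.3 CPM (1.07, adjusted p = 0.037). It was called in 2 of 6 leave-one-out fits (highest adjusted p 0.147).

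Granule genes of neutrophils were among the lower genes. Of 15 tested neutrophil genes 7 were called lower, beside 0.691% of all tested genes, and none higher, 14 had a negative log2 fold change, and the median was -0.67. Ngp, a protein of secondary granules, was at 86.7, 143 and 86.9 CPM in wild-type livers and 55.3, 57.1 and 53.8 CPM in mutants (-0.93, edgeR adjusted p = 0.0143). Camp, which encodes the antimicrobial peptide cathelicidin, was at 63.7, 77.6 and 48.9 CPM against 34.7, 34.9 and 33 CPM (-0.89, adjusted p = 0.00647). S100a8, a calcium-binding protein of neutrophils, was at 172, 222 and 148 CPM against 111, 122 and 108 CPM (-0.67, adjusted p = 0.0187). Ngp and S100a8 lost their calls without mutant replicate 1 or mutant replicate 3 (highest adjusted p 0.0844 and 0.0995). The mutants lay close together in these genes and wild-type replicate 2 was the highest of the wild types.

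The other 4 were Ltf (-0.86), Lcn2 (-0.82), S100a9 (-0.69) and Elane (-0.76), of which Elane, the protease of primary granules, was not called after scaling by relative log expression, under DESeq2, with a filter on mean CPM or in 5 of 6 leave-one-out fits (highest adjusted p 0.13). Ltf and Lcn2 were called in 3 and S100a9 in 2 of 6 leave-one-out fits (highest adjusted p 0.145, 0.116 and 0.177), and DESeq2 did not call Ltf or S100a9. The genes of primary granules Mpo, Ctsg and Prtn3 were at 0.13, -0.03 and -0.02 (adjusted p = 0.646, 0.928 and 0.966), and the called genes other than Elane encode secondary granule and S100 proteins of later neutrophil stages. The summed neutrophil markers ran from 985 to 1441 CPM in wild-type livers, with wild-type replicate 2 the highest, and from 804 to 939 CPM in mutants, and no marker was at 0. The calls depended on mutant libraries. Without mutant replicate 1 or without mutant replicate 3, Camp was the 1 gene of the list still called, and without mutant replicate 2 there were 4. With any wild type left out 6 of the 15 were lower, of which 6, 6 and 5 were among the 7 without wild-type replicate 1, 2 and 3, and without wild-type replicate 2 the median was -0.45. Under the block 8 were lower, beside 1.39% of all tested genes. Outside this list the stefin genes Stfa2 and Stfa3, Retnlg and Olfm4, picked out after their values were seen, were lower at -1.04, -0.77, -1.38 and -0.93 (adjusted p = 0.0182, 0.0344, 0.0344 and 0.00169), and were called in 4, 2, 2 and 6 of 6 leave-one-out fits. Stefins form a cluster of near-identical copies. The part of the number of neutrophil precursors in these falls was not tested.

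Single genes of eosinophils and macrophages were strongly lower while most markers of those cells were not called. Prg2, the major basic protein of eosinophil granules, was at 48.5, 56.6 and 48.5 CPM in wild-type livers and 24.8, 16.7 and 22.5 CPM in mutants (-1.27, SE 0.12, edgeR adjusted p = 0.000431). It was the 1 called gene of 9 tested in the list of eosinophils, basophils and mast cells. Prg3 and Epx, also of eosinophil granules, were at -0.82 and -0.67 (adjusted p = 0.0978 and 0.0805), and with the block Epx was called lower and Siglec5, at 0.74 (adjusted p = 0.0561), higher. The summed list was at 86.7 to 104 CPM in wild types and 52.5 to 65.7 CPM in mutants, with 4 of its 13 members below the filter. This separation rested on Prg2, since without it the sums were 38.1, 47.2 and 38.7 CPM in wild types and 40.9, 35.8 and 40.9 CPM in mutants, which overlap. Cd5l, which is secreted by tissue macrophages, was at 130, 88.5 and 102 CPM against 53.6, 37.6 and 49.4 CPM (-1.19, adjusted p = 0.00187). The other 16 tested macrophage markers were not called, and the complement genes C1qa, C1qb and C1qc were at 0.06, -0.08 and -0.02 (adjusted p = 0.839, 0.685 and 0.938). With the block Marco and Lyz2 were also lower. Summed macrophage markers were at 1526 to 1646 CPM in wild types and 1482 to 1566 CPM in mutants. The ranges overlapped through wild-type replicate 2 alone. The part of cell number in the falls of Prg2 and Cd5l was not tested.

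Some genes of megakaryocytes, the cells that shed platelets, were higher. All 15 tested markers had a positive log2 fold change with a median of 0.29, and 3 were called higher, beside 0.698% of all tested genes, or 5 with the block, beside 1.85%. Mmrn1, multimerin of platelet granules, was at 24.3, 27.9 and 27.3 CPM in wild-type livers and 39.3, 35.7 and 47.2 CPM in mutants (0.62, edgeR adjusted p = 0.0143). Itgb3, the platelet fibrinogen receptor subunit, was at 123, 142 and 143 CPM against 184, 178 and 199 CPM (0.46, adjusted p = 0.0122). Pf4, a platelet chemokine, was at 155, 153 and 146 CPM against 186, 202 and 213 CPM (0.40, adjusted p = 0.0143). Mmrn1 lost its call without wild-type replicate 1 or mutant replicate 1 (highest adjusted p 0.0546), Itgb3 without mutant replicate 3 (0.0534), and Pf4 without wild-type replicate 3 or mutant replicate 3 (0.0665). Without wild-type replicate 2, 6 megakaryocyte markers were higher, and without mutant replicate 3 there was 1, Mmrn1. The summed markers ran from 816 to 877 CPM in wild types and from 1031 to 1140 CPM in mutants, with none at 0. The part of megakaryocyte number in these rises was not tested.

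Few markers of the main cell types of the organ were called. None of 26 tested erythroid markers was called by edgeR or DESeq2 and 2 had an unadjusted p under 0.05, 24 of them had a negative log2 fold change, and the median was -0.11. With the block 1 was lower, and without wild-type replicate 2 there were 3 lower. Their summed level was 64673, 37516 and 52915 CPM in wild types and 46571, 44641 and 48619 CPM in mutants. The mutants fell inside the wild-type range through wild-type replicate 2 alone, and without that library the median was -0.20. Of the 28 members 1 was at 0. Of 28 hepatoblast markers Trf was called higher and none lower, 24 had a positive log2 fold change, and the median was 0.11. Their sums were 68266 to 80115 CPM in wild types and 82705 to 95219 CPM in mutants, so the groups did not overlap. By edgeR and by DESeq2 none of 13 stem and progenitor cell, 19 endothelial, 17 stellate and mesenchymal, 7 mesothelial and 5 lymphoid precursor markers was called, and 2, 9, 5, 2 and 0 of them had an unadjusted p under 0.05, beside 14.6% of all tested genes. With the block 1 mesothelial marker was higher. Mesothelial sums did not overlap, at 292 to 340 CPM in wild types and 362 to 394 CPM in mutants, though 4 of the 7 markers had a negative log2 fold change. Of 12 markers of neighbouring tissues 2 passed the filter and their summed level was at most 7.02 CPM. These values place erythroid and hepatoblast transcripts at high levels in every liver, as the tissue label states.

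A few genes of the extracellular matrix were higher. Of 28 tested, 26 had a positive log2 fold change, with a median of 0.17, and Lamc1, a laminin chain of basement membranes, and Col6a3, a collagen chain, were called higher at 0.34 and 0.43 (edgeR adjusted p = 0.0351 and 0.0414), beside 0.698% of all tested genes. Each was called in 1 of 6 leave-one-out fits, with highest adjusted p of 0.15 and 0.153, and both only without mutant replicate 2, where 6 matrix genes were higher. Without wild-type replicate 2 there was 1, neither of these, and without any one of the other 4 libraries there was none. With the block 7 were higher, beside 1.85%, among them Fn1, which encodes fibronectin, at 0.53 without the block (adjusted p = 0.0514). The summed level was 3503 to 3897 CPM in wild types and 3898 to 4780 CPM in mutants, so the lowest mutant was at the level of the highest wild type. Clu, which encodes the secreted chaperone clusterin, was higher at 100, 107 and 119 CPM against 146, 165 and 163 CPM (0.54, adjusted p = 0.00516).

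**Figure D3:**
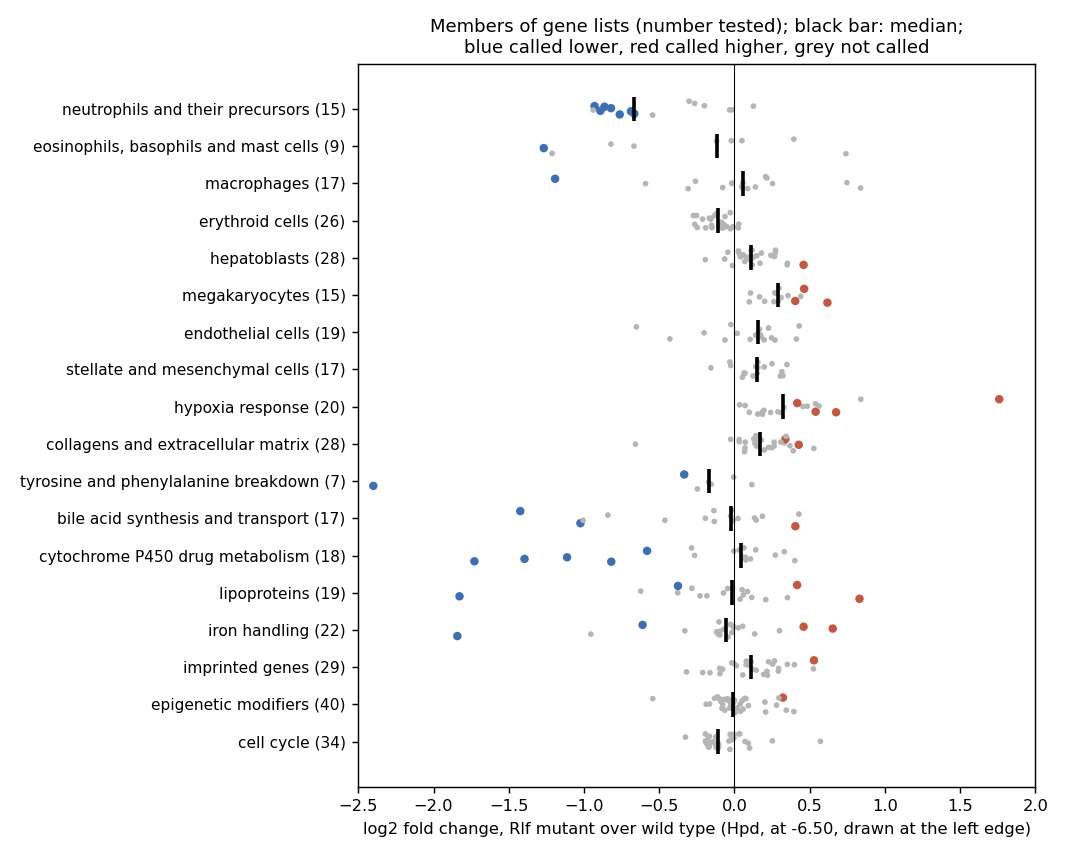
Log2 fold change of each tested member of 18 gene lists, with the number tested in brackets, the median as a black bar, and called genes in blue (lower) or red (higher). Hypoxia and megakaryocyte genes lie to the right of 0 (medians 0.32 and 0.29) and neutrophil genes to the left (median -0.67), while several metabolic lists hold a few large falls around a median near 0.

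**Figure D4:**
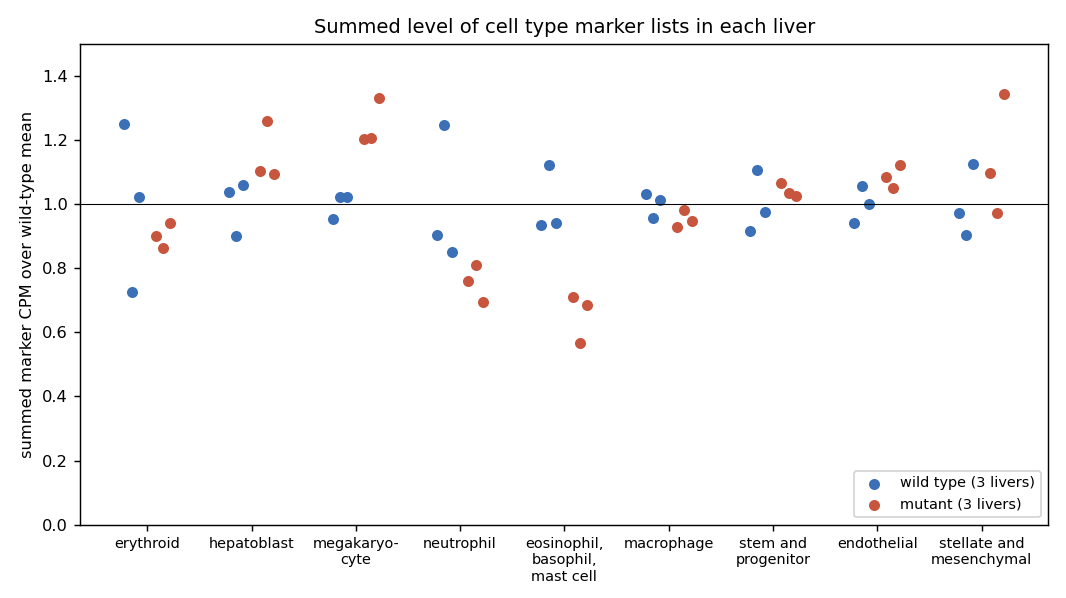
Summed CPM of the marker genes of 9 cell types in each liver, divided by the wild-type mean, with wild type in blue and mutant in red. Megakaryocyte and hepatoblast sums are higher and neutrophil sums lower in all 3 mutants. The sum with eosinophil markers is lower in all 3 only with Prg2 counted. Erythroid and macrophage sums overlap between genotypes, in both cases through wild-type replicate 2 alone.

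In the list of epigenetic modifiers, which does not hold the histone demethylase Kdm3a counted with the hypoxia genes, 1 of 40 tested genes was called, beside 1.39% of all tested genes. Dnmt3a, the de novo DNA methyltransferase, was at 101, 108 and 115 CPM in wild-type livers and 136, 139 and 131 CPM in mutants (log2 fold change 0.32, edgeR adjusted p = 0.0319). Leaving out any library except wild-type replicate 2 ended this call (highest adjusted p 0.102). Its exons overlap those of Gm10485. Of the TET genes, which remove DNA methylation, Tet1 and Tet2 were at 0.28 and 0.39 (adjusted p = 0.518 and 0.264). Zfp292, the relative of Rlf, was at 0.34 (adjusted p = 0.06) and was called higher with the block. Of 29 tested imprinted genes Zim1 was higher at 0.53 (adjusted p = 0.0226), beside 0.698% of all tested genes, with 2 higher under the block, beside 1.85%, and was called in 3 of 6 leave-one-out fits (highest adjusted p 0.116). Of 21 blood transcription factors none was called by edgeR or DESeq2 (3 at an unadjusted p under 0.05), as was the case for 18 heme synthesis and breakdown genes (1 at that level) and 27 genes of the BMP and TGF-beta pathway (5 at that level), and of 21 hepatocyte transcription factors Zbtb20 was called, with 2 higher under the block.

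Some of the largest falls were in genes better known from the germ line. Prss50, a serine protease of testis, was at 8.85, 8.85 and 7.15 CPM in wild-type livers and 2.17, 1.73 and 1.33 CPM in mutants (-2.25, SE 0.20, edgeR adjusted p = 0.000188). Psma8, the proteasome subunit of spermatocytes, was at -1.80 (adjusted p = 0.0044), and Dnajb3, a chaperone of spermatids, at 14.6, 8.99 and 11.4 CPM against 4.50, 4.04 and 2.53 CPM (-1.66, adjusted p = 0.00378). Dnajb3 lies within the span of Ugt1a9, which was also called lower, though their annotated exons do not overlap. Reads were counted without strand there too. Sycp1 and Rnf17, of meiotic chromosomes and spermatid development, were at -1.49 and -1.43 (adjusted p = 0.0344 and 0.0145), and were called in 2 and 3 of 6 leave-one-out fits (highest adjusted p 0.145 and 0.0847). A list of 50 germ cell genes was then written after these values had been seen, with the 5 genes among its members, and it is a description only. Of its members 12 were tested, 37 were below the filter, 5 were lower, beside 0.691% of all tested genes, and none was higher. The 7 tested members that were not called ran from -0.54 for Rnf212 to 0.48 for D1Pas1, with Brdt also positive at 0.41. Other large falls were in Atp2b2, a calcium pump of the plasma membrane (4.04, 3.83 and 2.45 CPM against 0.931, 1.01 and 0.772 CPM, -1.92, adjusted p = 0.00578), and Mc2r, the receptor for corticotropin (-2.32, adjusted p = 0.0143). Mc2r was called in 3 of 6 leave-one-out fits (highest adjusted p 0.0851). Crispld2 and Dnahc8, an axonemal dynein, were at -1.59 and -1.52 (adjusted p = 0.0172 and 0.0344) and were called in 3 and 1 of 6 such fits (highest adjusted p 0.0975 and 0.123). A further one was Zfp783, a zinc finger gene (9.84, 9.65 and 7.51 CPM against 3.34, 2.67 and 2.46 CPM, -1.68, adjusted p = 0.000775), whose exons overlap a second annotated entry of the same symbol. 1700006J14Rik, whose exons overlap those of Hmga2, was at -2.19 (adjusted p = 0.00276).

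Called genes were spread over the genome. On chromosome 4, which carries Rlf, 7 of 943 tested genes were called (0.742%). The nearest on either side of Rlf were Cyp4a12a, 5.813 Mb away and lower at -1.11 (edgeR adjusted p = 0.00682), and Plod1, 26.4 Mb away and lower at -0.40 (adjusted p = 0.00551), which lost its call without mutant replicate 3 (adjusted p = 0.0541). There were 14 pairs of neighbouring called genes within 100 kb of each other. The pairs that moved in opposite directions were Apoc1 with Apoe, Adh7 with Adh1, and Trfr2 with Pcolce, which was higher at 0.50, lies 17.6 kb away and was called in 1 of 6 leave-one-out fits (highest adjusted p 0.128). Of 5 tested genes within 100 kb of Hpd, Psmd9 was called lower at -0.29 (adjusted p = 0.047) but in 1 of 6 leave-one-out fits (highest adjusted p 0.193), and Setd1b, the nearest at 4.37 kb, was at -0.01 (adjusted p = 0.966).

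The E14.5 bisulphite libraries, from 2 wild-type and 2 mutant livers of the same line, gave a second kind of measurement at the same genes. Each genotype had a male and a female liver here, and values are given in that order. Whether any of these livers also gave an RNA-seq library is not given in the sources used here, so the measurements may share animals. Promoter methylation was the share of methylated reads, in percent, summed over those CpGs that were read 6 times or more in each of the 4 livers, from 1000 bp before to 1000 bp after the annotated start. No test was run on these 2 livers against 2, and an exact permutation test of so few cannot reach 0.05, so the values are a description. Over all CpGs together wild types had 56.4% and 58.5% of reads methylated and mutants 60.3% and 59.2%. Both mutants were above both wild types, but the 2 wild types lay further apart than the nearest wild type and mutant. The paper, from window averages, found no effect of Rlf loss on the overall level. In wild-type livers the median promoter methylation was 47.0% for the genes called lower, 7.99% for the genes called higher and 4.98% for all tested genes. The median difference of mutant minus wild type was 2.82 percentage points for the genes called lower, 0.437 points for the genes called higher and 0.244 points for all tested genes. A gain above 5 points was seen at 25 of 98 lower genes (25.5%), at 7 of 97 higher genes (7.22%) and at 559 of 14051 tested genes with a value (3.98%). A loss above 5 points was seen at none of the called genes and at 39 of 14051 tested genes with a value (0.278%).

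Lower genes differed from other genes in starting methylation as well, so the counts were also taken within broad classes of wild-type methylation. This comparison was added after the values were seen. The classes are wide, so starting methylation can still differ between the gene groups within each. The shares are thus not compared at equal starting methylation. Where the wild-type promoter was between 20% and 80% methylated, 18 of 66 lower genes (27.3%), 6 of 31 higher genes (19.4%) and 477 of 3025 tested genes (15.8%) gained above 5 points, with median differences of 3.26, 0.798 and 1.95 points. Below 20% the counts were 7 of 31 (22.6%), 1 of 63 (1.59%) and 81 of 10832 (0.748%). Of 83 tested genes with a gain above 10 points, 8 were called lower and 1 higher, 52 had a negative log2 fold change, and the median log2 fold change was -0.05.

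The gains above 10 points at called genes were at Apoc1 (22.9 points), Noxa1 (19.7), Zfp783 (15.6), Prss50 (13.9), 1700006J14Rik (11.1), Ly6c2 (11.1), Aqp9 (10.4) and Dnajb3 (10.3), all lower, and at Mgam (10.6), which was higher. Noxa1, an activator of NADPH oxidase, was lower at -1.28 (edgeR adjusted p = 0.0143) and was picked out here by its methylation, as was Ly6c2. The exons of Noxa1 overlap those of Entpd8. Noxa1 was called in 4 and Ly6c2 in 3 of 6 leave-one-out fits (highest adjusted p 0.0577 and 0.0896). At Apoc1 the promoter region was 44.5% and 45.6% methylated in wild types and 68.1% and 67.8% in mutants. At Hpd, the gene with the greatest fall, the gain was 6.65 points. The wild-type values there were 65.0% and 63.5% and the mutant values 71.1% and 70.8%.

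The 4 lower genes with the largest promoter gains, and Hpd, are shown as 200 bp windows, read from the mm9 reference on the strand of the gene, 5' to 3', with each CpG in capitals. For the first 4 genes the window has the largest gain among those with at least 5 measured CpGs within 1 kb of the start that lie clear of annotated UTRs, so its gain is a description and need not be the largest at the gene. For Hpd it is the stretch just before the annotated start. Positions are counted from the annotated start of the gene, negative before it.
Apoc1, chr7:20277391-20277590, minus strand, 417 to 616 bp from the start, intron: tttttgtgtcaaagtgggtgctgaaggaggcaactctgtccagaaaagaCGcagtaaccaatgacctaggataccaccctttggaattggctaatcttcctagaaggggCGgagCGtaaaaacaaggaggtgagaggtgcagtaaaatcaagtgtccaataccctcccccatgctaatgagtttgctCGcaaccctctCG
Noxa1, chr2:24951184-24951383, minus strand, -714 to -515 bp from the start: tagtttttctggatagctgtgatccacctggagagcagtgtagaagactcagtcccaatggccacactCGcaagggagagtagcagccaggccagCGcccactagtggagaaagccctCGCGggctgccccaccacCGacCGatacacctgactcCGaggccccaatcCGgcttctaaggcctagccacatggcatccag
Zfp783, chr6:47892768-47892967, plus strand, -426 to -227 bp from the start: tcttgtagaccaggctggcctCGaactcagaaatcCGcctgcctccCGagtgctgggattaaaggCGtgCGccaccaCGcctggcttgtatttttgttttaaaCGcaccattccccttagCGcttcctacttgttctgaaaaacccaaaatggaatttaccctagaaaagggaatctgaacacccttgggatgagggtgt
Prss50, chr9:110760852-110761051, plus strand, 381 to 580 bp from the start, coding exon and intron: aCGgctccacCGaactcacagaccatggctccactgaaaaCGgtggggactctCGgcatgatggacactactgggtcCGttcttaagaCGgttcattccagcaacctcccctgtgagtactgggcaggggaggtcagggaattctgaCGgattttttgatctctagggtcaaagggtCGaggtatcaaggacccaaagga
Hpd, chr5:123632735-123632934, minus strand, the 200 bp before the start: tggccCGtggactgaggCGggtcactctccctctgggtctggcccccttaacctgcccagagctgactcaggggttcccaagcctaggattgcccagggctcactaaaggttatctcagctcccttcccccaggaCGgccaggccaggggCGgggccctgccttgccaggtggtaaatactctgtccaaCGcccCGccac

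In the Apoc1 window the 5 CpGs together were 38.5% and 37.2% methylated in wild-type livers and 80.5% and 84.6% in mutants, and each of the 5 was higher in both mutants than in both wild types. In the Noxa1 window the 8 CpGs were at 50.5% and 48.6% in wild types and 72.4% and 73.8% in mutants. In the Zfp783 window they were at 11.2% and 19.9% in wild types and 52.3% and 51.0% in mutants. All 8 CpGs of the Noxa1 and Zfp783 windows were higher in both mutants than in both wild types. In the Prss50 window the values were 28.5% and 31.6% against 49.6% and 52.7%, with 7 of 8 CpGs separating the genotypes. In the Hpd window the 6 CpGs were at 54.4% and 56.3% against 68.2% and 65.6%, with 4 of 6 separating them. Gm17627 is annotated over the same stretch.

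**Figure D5:**
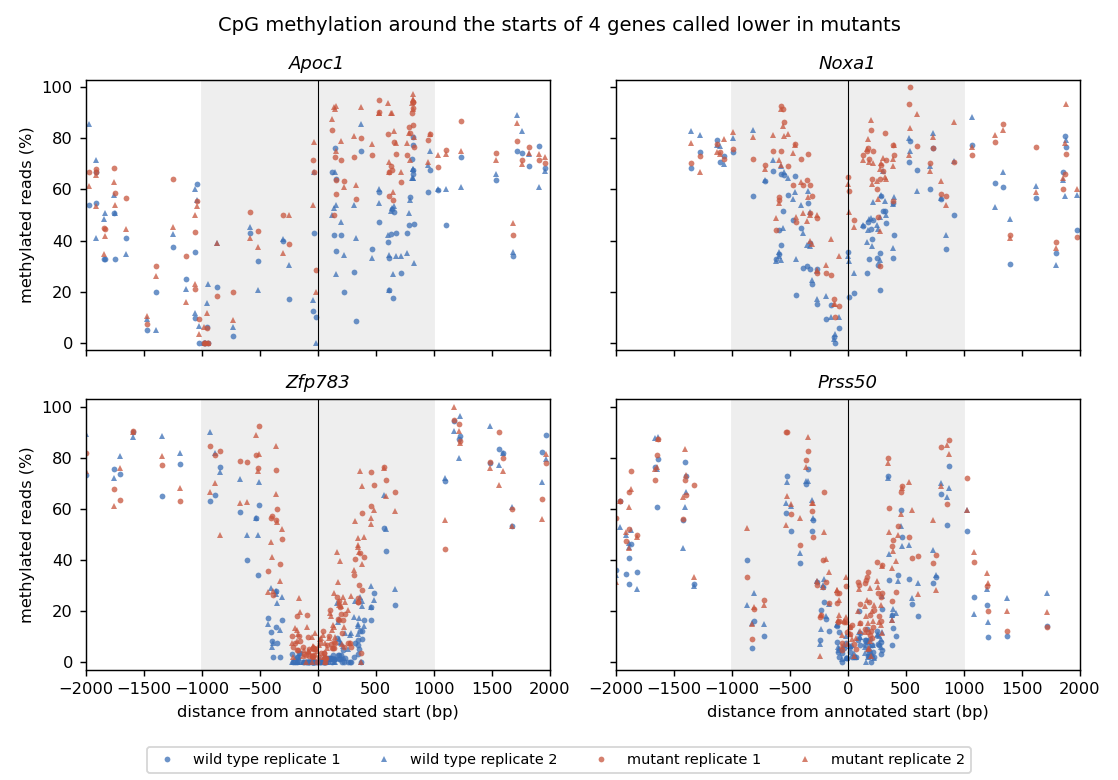
Methylated reads (%) at each CpG with enough reads within 2 kb of the annotated start of Apoc1, Noxa1, Zfp783 and Prss50, with 2 wild-type livers in blue and 2 mutant livers in red and the region used for the promoter value shaded. Mutant values lie above wild-type values at most CpGs on the shoulders of the dip at Noxa1 and Zfp783, inside and after the dip at Prss50, where the genotypes overlap at several CpGs before it, and within the gene at Apoc1, whose regional gain was 22.9 points.

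Differences in methylation within a wider distance were less distinct. That distance took in the promoter region, so a promoter gain given above can be counted again here. The tile counts are therefore not a separate observation. A 1 kb tile that gained more than 15 points lay within 50 kb of 20 of 98 lower genes (20.4%), of 10 of 99 higher genes (10.1%) and of 1362 of 14183 tested genes (9.60%). Apoc1, Noxa1, Zfp783, 1700006J14Rik, Dnajb3 and Igfbp1 had such a tile, and Hpd, Upb1, Timd2, Haao and Prss50 had none. A tile that lost more than 15 points lay within 50 kb of 3 lower genes (3.06%), 2 higher genes (2.02%) and 91 of all tested genes (0.642%). Whether methylation and expression were linked at any gene was not tested.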

How the data were processed

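Gene expression was measured by RNA-seq in 3 wild-type and 3 Rlf mutant E14.5 livers. The authors deposited unnormalized read counts for each Ensembl gene, made with TopHat on mm9 and htseq-count without strand, so overlapping genes share uncertainty. For E14.5 bisulphite libraries the authors deposited counts of methylated and unmethylated reads per CpG, made with Bismark and Bowtie2, beside a rounded percent that was not used here. The CpGs had 31.4 to 35.4 reads on average.

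Counts were fitted with edgeR 4.0.16 (R 4.3.3) by glmQLFit and glmQLFTest with TMM normalization, the filterByExpr filter, no covariate and Benjamini-Hochberg adjustment over all 14183 genes passing the filter. The scripts were tested on simulated data. DESeq2 1.42.0 was the other tool. Promoter values, lists and figures used python 3.11.15, numpy 2.4.6, pandas 2.3.3, matplotlib 3.10.9 and samtools 1.23.1, with GENCODE vM1 on NCBIM37 (mm9). Of 37991 gene identifiers 37205 had an entry there. Alternatives were the normalization, the filter, sex as covariate, a replicate block, X and Y genes left out, each library left out, and for methylation the coverage minimum, the window and each liver left out. Libraries of 1 genotype differed beyond counting noise, so none was taken as a duplicate.

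Deviations of log2 CPM from the group mean were correlated between the livers numbered 1, 2 and 3 in both genotypes (r = 0.125, 0.226 and 0.409 over 14183 genes), so replicate numbers were taken to pair the samples. Livers of unlike number had r from -0.286 to 0.09, the highest for wild-type replicate 2 with mutant replicate 1. The margin is thus narrow for replicate 1, and the largest r is that of the female livers, so the block is an alternative only. The pairing rests on the counts and not on the labels, beyond replicate 3 being the female liver of each genotype.

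Genes named are Rlf, and among called genes with a mean of at least 1 CPM and groups that do not overlap the 15 largest falls, the 15 largest rises and the 10 highest levels. Called members of the lists, uncalled members where a pathway is given, and the called genes nearest to Rlf are named besides. There were 13 cell type lists and 37 pathway lists. The genes, lists and tests were chosen with earlier results of these data known. The germ cell list and the comparison by class of wild-type methylation were made after the values were seen. H3K4me1 ChIP-seq and the other stages were not analysed here. The values of 1 list member are not reported here.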

Additional observations from a re-analysis of the deposited data

How the results depend on the processing

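The count of called genes depended on the filter and on the pairing. With no filter on low counts 532 genes were called, 317 higher and 215 lower, and with the replicate block 460, 263 higher and 197 lower, beside 197, 99 and 98 in the reported fit. All 197 genes were called in both. DESeq2 called 256 genes (145 higher and 111 lower, with 23413 adjusted p-values not given), of which 181 were among the 197. Other settings with all 6 libraries called 191 to 229. Of the 197, sex as covariate kept 181, scaling by relative log expression 194 and a filter on mean CPM 187. Leaving out X and Y genes kept 193. With 1 library left out, edgeR called 66 to 224 genes, 27 to 97 of them higher and 39 to 127 lower. The count was 94 without wild-type replicate 1, 105 without wild-type replicate 3, 66 without mutant replicate 1, 115 without mutant replicate 2 and 105 without mutant replicate 3. Of the 197 genes, 64 (without mutant replicate 1) to 148 (without wild-type replicate 2) stayed called. All 197 genes kept their direction in each of these fits, which their non-overlapping groups all but fixed in advance. Fewer samples entered each of these fits. All 80 named called genes likewise kept direction in every setting. Of them 73 were called in every setting that kept all libraries, and DESeq2 did not call the other 7. The block changed the call of none of the 80. Mean promoter differences were 3.64 points for lower genes (2.94 to 4.33 with 1 liver left out), 0.93 for higher genes (0.42 to 1.44) and 0.78 for all tested genes (0.43 to 1.13). With 3 livers a group, small changes of genes under 10 CPM may go undetected.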
